A study of Mus musculus with 9 samples.

Results

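The growth hormone, STAT5 and IGF1 axis of the liver was followed through 10 genes, taken by gene symbol out of 57010 genes in the deposited tables: the receptor gene Ghr, the transcription factor genes Stat5a and Stat5b, the STAT5-responsive genes Bcl6, Socs2 and Cish, and the hormone and binding protein genes Igf1, Igfals, Igfbp1 and Igfbp2. All 10 had enough counts to enter the test, which ran on 13686 genes. The libraries were made from liver RNA of male BALB/c mice, 3 in each of 3 groups. The groups AT3 and CPT both carry the label of acute liver injury brought on by cisplatin, also written DDP, a platinum-based chemotherapy drug. The group CON is labelled as having no treatment. AT3 is not spelled out in the labels, while the study's title names atractylenolide III, a sesquiterpenoid of plant origin. The sources used here state neither dose, route, age nor sampling time, nor whether the animals were fed. CPT against CON asks what changed in the injured liver, and AT3 against CPT asks, from the title, what the compound did to that injury. No label ties a replicate to an animal, so p-values here weigh differences against the variation among libraries, which may be technical in part.

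Growth hormone from the pituitary binds its receptor GHR on hepatocytes, the kinase JAK2 bound to the receptor phosphorylates STAT5, and STAT5 dimers enter the nucleus and switch on Igf1, Igfals, Socs2 and Cish. IGF1 leaves the liver and circulates in a complex with the acid-labile subunit, made from Igfals, and a binding protein such as IGFBP3, while IGFBP1 and IGFBP2 hold it in smaller complexes. Igfbp1 is held down by insulin and is switched on by FOXO1 when insulin is low and by cellular stress. In mice, males secrete growth hormone in pulses, and the pulsed activation of STAT5B keeps male-biased liver genes on and female-biased genes off; BCL6 is a repressor more abundant in male liver that binds many of the same sites.

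The promoter sequences are shown because a STAT5 dimer reads a short palindrome and FOXO1 reads a short insulin-response element, and the members differed in whether they hold either. Windows of 250 bases before to 50 bases after an annotated start were taken from RefSeq on GRCm38.p6. Of the 10 members 9 had at least 1, with 16 windows in all. Socs2 had no window, so its promoter was not searched. Both strands were searched for TTCNNNGAA, which reads the same on either strand, for CAAAACA with its complement TGTTTTG, and for GTAAACA with its complement TGTTTAC. The palindrome TTCNNNGAA was found in 5 windows of 3 members, Cish, Bcl6 and Igfals, against 8.30% of all 32851 windows of the same length in the RefSeq table. Each sequence below runs 5′ to 3′ on the strand of the gene and is cut at 30 bases after the start, with the matches in capitals.
Cish, chr9:107296409-107296688, plus strand: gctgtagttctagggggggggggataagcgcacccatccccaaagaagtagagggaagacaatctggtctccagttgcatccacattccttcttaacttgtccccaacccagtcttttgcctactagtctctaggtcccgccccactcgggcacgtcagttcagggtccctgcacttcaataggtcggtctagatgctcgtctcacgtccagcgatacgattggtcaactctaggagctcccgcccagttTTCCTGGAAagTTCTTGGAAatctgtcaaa
Bcl6, chr16:23981254-23981533, minus strand: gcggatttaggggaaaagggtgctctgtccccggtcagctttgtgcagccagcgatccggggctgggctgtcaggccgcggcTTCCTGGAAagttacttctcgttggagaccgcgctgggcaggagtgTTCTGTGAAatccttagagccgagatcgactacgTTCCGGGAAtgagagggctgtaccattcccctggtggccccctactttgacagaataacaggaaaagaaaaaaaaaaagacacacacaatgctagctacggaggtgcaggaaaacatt
Igfals, chr17:24877981-24878260, plus strand: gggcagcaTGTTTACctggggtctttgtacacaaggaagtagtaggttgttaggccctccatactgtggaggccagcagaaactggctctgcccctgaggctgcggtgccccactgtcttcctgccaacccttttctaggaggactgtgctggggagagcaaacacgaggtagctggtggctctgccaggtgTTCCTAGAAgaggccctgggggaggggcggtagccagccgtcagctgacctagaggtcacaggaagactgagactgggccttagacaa
Igfbp1, chr11:7197537-7197816, plus strand: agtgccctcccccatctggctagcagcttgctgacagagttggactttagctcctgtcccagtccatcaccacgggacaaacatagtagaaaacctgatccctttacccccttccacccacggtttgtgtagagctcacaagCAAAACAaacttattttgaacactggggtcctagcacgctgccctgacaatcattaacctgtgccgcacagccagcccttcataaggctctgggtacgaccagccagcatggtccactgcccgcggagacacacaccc
The Cish window held the palindromes TTCCTGGAA at position 1 and TTCTTGGAA at position 12, counted from 1 at the annotated start. The starts of the Cish, Bcl6 and Igfals windows shown lie inside the gene as annotated in GENCODE M21. This Bcl6 window held 3 palindromes, at positions -168, -122 and -88, and a window of another Bcl6 start held 1. At least 2 matches of TTCNNNGAA were found in 0.457% of all windows. Igfals held TTCCTAGAA at position -58 and TGTTTAC at position -242 in the window shown, and TTCTCAGAA in a window of another start. Igfbp1 held CAAAACA at position -108 and no TTCNNNGAA in this window; CAAAACA or its complement was found in 6.28% of all windows, and GTAAACA or its complement in 3.65%. A match is a description of these letters, and its absence from a window says nothing of more distant sites.

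The libraries held 21485021 to 28480479 estimated counts each. The 10 genes took 0.127% to 0.131% of the counts in AT3, 0.114% to 0.12% in CPT and 0.132% to 0.149% in CON. The groups differed in make-up: transcripts of the mitochondrial genome took 10.3% ± 0.927 in AT3, 13.5% ± 2.59 in CPT and 31.7% ± 5.54 in CON (SD, n = 3 each), so that levels with and without a correction for make-up differ. Haemoglobin transcripts took 0.000633% in AT3, 0.000444% in CPT and 0.0642% in CON, and erythroid markers summed to 38.4 to 44.5 CPM in AT3, 42.7 to 50.9 in CPT and 797 to 908 in CON. Lymphocyte markers summed to 3.74 to 6.23 CPM in AT3, 5.15 to 7.94 in CPT and 16.0 to 17.3 in CON. The part of these in the differences from CON was not tested. Values below are CPM (counts scaled to a common library total) after scaling by the trimmed mean of M-values (TMM), unless they are named as TPM, which are also divided by transcript length. In a principal component analysis of all tested genes CPT_3 stood at -7.41 on the second component, between CPT_1 and CPT_2 at -29.5 and -27.8 and the AT3 libraries at 18.1 to 21.0, and results that turn on it are given with and without it. Albumin, the defining hepatocyte transcript, averaged 53913 ± 2472 CPM in AT3, 37177 ± 6415 in CPT and 38557 ± 2553 in CON (SD, n = 3 each), as fits the liver label.

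Of the 10 genes, 7 were called in CPT against CON at an adjusted p below 0.05, 1 higher and 6 lower, beside 60.8% of all tested genes called, 30.0% higher and 30.8% lower. Between AT3 and CON 6 were called, 1 higher and 5 lower, beside 64.4% of all tested genes, 31.5% higher and 32.9% lower. Between AT3 and CPT the only member called was Igfbp1, which was higher, beside 4.68% of all tested genes called, 2.46% higher and 2.22% lower. The 2 comparisons with CON share its libraries. A share of 7 or 6 in 10 is near the background. Groups whose libraries did not overlap were likewise common: 6 members in CPT against CON beside 64.2% of all tested genes (31.5% higher, 32.7% lower), 7 in AT3 against CON beside 70.3% (34.5% higher, 35.9% lower), and 2 in AT3 against CPT, Igfbp1 and Cish, beside 27.0% (14.5% higher, 12.5% lower).

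**Figure D1:**
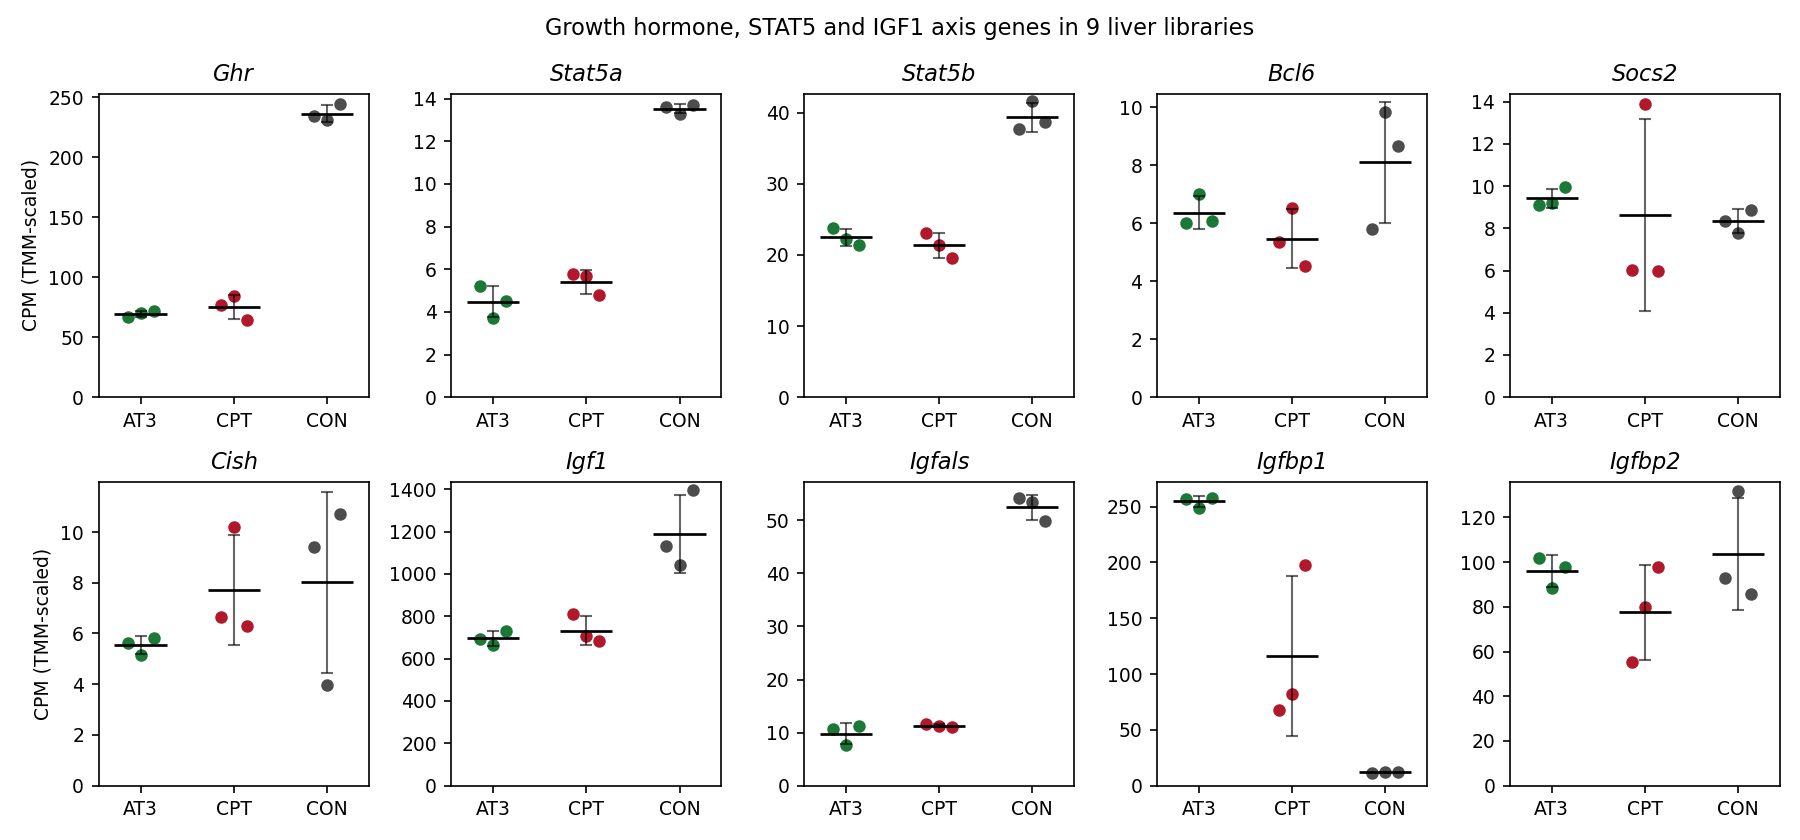
TMM-scaled CPM of the 10 genes in each library (points), with the group mean (long line) and its SD (whiskers, n = 3), groups from left to right AT3, CPT and CON, each panel on its own linear axis from 0. Ghr, Stat5a, Stat5b, Igf1 and Igfals sit lower in every AT3 and CPT library than in any CON library, and Igfbp1 sits higher.

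Ghr, the receptor gene (chromosome 15, 3317760 to 3583492, minus strand, GRCm38, GENCODE M21), was lower in both cisplatin groups. It stood at 66.5, 69.8 and 72.0 CPM in AT3_1 to AT3_3, at 76.9, 83.9 and 63.9 CPM in CPT_1 to CPT_3, and at 234, 231 and 244 CPM in CON_1 to CON_3. Every cisplatin library lay below every CON library, and the AT3 range lay inside the CPT range. The log2 fold change was -1.66 ± 0.10 (SE) in CPT against CON, 3.15-fold lower (edgeR quasi-likelihood test, adjusted p = 2.68e-09). In AT3 against CON it was -1.77 ± 0.10 (edgeR adjusted p = 1.11e-09). AT3 against CPT gave -0.11 with a 95% interval of -0.33 to 0.11 (edgeR adjusted p = 0.601), which is a fold of 0.797 to 1.08. In bulk tissue, fewer cells of a type and less RNA per cell cannot be told apart.

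Stat5a and Stat5b, the paralogous signal transducers of which STAT5B is the main form in hepatocytes, lie 8626 bases apart on chromosome 11 (Stat5b 100780731 to 100850724, minus strand; Stat5a 100859351 to 100885169, plus strand). Stat5b was found at 23.8, 22.3 and 21.4 CPM in AT3, 23.1, 21.4 and 19.6 CPM in CPT, and 37.7, 41.6 and 38.7 CPM in CON. For Stat5a the values were 5.22, 3.73 and 4.51 CPM in AT3, 5.76, 5.67 and 4.77 CPM in CPT, and 13.6, 13.3 and 13.7 CPM in CON. Both genes were lower in all 6 cisplatin libraries than in any CON library. Stat5b fell by 0.88 ± 0.10 on the log2 scale and Stat5a by 1.32 ± 0.13 in CPT against CON (SE; edgeR adjusted p = 1.20e-06 and 5.64e-07). In AT3 against CON they fell by 0.81 ± 0.10 and 1.59 ± 0.14 (SE; edgeR adjusted p = 2.50e-06 and 6.86e-08), and neither was called in AT3 against CPT.

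How the reads were divided between these paralogs is uncertain. Their estimated counts were fractional in 6 libraries, while the sum of both was whole in all 9 within 0.015. Summed into 1 gene, they changed by -0.98 ± 0.10 in CPT against CON (SE; edgeR adjusted p = 3.35e-07), by -0.97 ± 0.10 in AT3 against CON (adjusted p = 3.07e-07) and by 0.01, with an interval of -0.19 to 0.22, in AT3 against CPT (adjusted p = 0.960). The other 8 members had only whole counts. Stat5a also overlaps Stat3 on the opposite strand, and Stat3, a transducer of interleukin-6 signalling, averaged 106 CPM in AT3, 99.6 in CPT and 30.2 in CON; whether the counting used strand is not stated, so reads of the overlap cannot be assigned.

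Bcl6, the repressor gene (chromosome 16, 23965052 to 23988852, minus strand, overlapping Gm37419), had the values 6.0, 7.02 and 6.09 CPM in AT3, 5.34, 6.54 and 4.54 CPM in CPT, and 5.79, 9.85 and 8.67 CPM in CON. CON_1 lay among the cisplatin libraries, so the groups overlap. CPT against CON gave a log2 fold change of -0.57 ± 0.18 (SE; edgeR adjusted p = 0.0133), and the call was lost without CPT_1, CPT_3 or CON_2, with adjusted p of 0.0527, 0.0566 and 0.0970, and without TMM, at -0.19 (adjusted p = 0.457). AT3 against CON gave -0.36 ± 0.18 (SE; edgeR adjusted p = 0.0944), but -0.53 (adjusted p = 0.0112) without CON_1.

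Socs2 and Cish encode suppressors of cytokine signalling that STAT5 switches on and that damp the receptor in return. In the edgeR test neither was called in any of the 3 comparisons. Socs2 (chromosome 10, 95385362 to 95417180, minus strand) stood at 9.12, 9.18 and 9.96 CPM in AT3, at 6.04, 13.9 and 5.96 CPM in CPT, and at 8.37, 7.77 and 8.89 CPM in CON. The AT3 and CON libraries lay close together, and CPT_2 stood well above the other two CPT libraries. CPT against CON gave a log2 fold change of 0.06 with an interval of -0.46 to 0.59 (edgeR adjusted p = 0.840), and AT3 against CPT gave 0.12 (-0.39 to 0.62; adjusted p = 0.841). Socs2 was the only uncalled member whose AT3 and CON libraries did not overlap, AT3 being higher (log2 fold change 0.18, edgeR adjusted p = 0.539); on log2(TPM + 1) that difference was called, at 0.67 (limma adjusted p = 0.0339). Without CPT_2 the values were -0.46 in CPT against CON (adjusted p = 0.00902) and 0.65 in AT3 against CPT (adjusted p = 0.0213), so CPT_2 alone decided both.

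Cish (chromosome 9, 107296026 to 107302784, plus strand, overlapping Gm17040 and Gm17041) has the tandem palindromes in the window shown above. It was measured at 5.64, 5.14 and 5.84 CPM in AT3, 6.64, 10.2 and 6.31 CPM in CPT, and 9.39, 3.96 and 10.7 CPM in CON. CON spanned the widest range, with CON_2 the lowest of all 9 libraries. The AT3 libraries lay below all CPT libraries, but the log2 fold change of -0.48 ± 0.27 was not called (SE; edgeR adjusted p = 0.325). CPT against CON gave -0.02 with an interval of -0.59 to 0.55 (edgeR adjusted p = 0.948). AT3 against CON gave -0.51 (adjusted p = 0.117), and -0.85 (adjusted p = 0.00133) without CON_2. Without the filter on low counts Cish was called lower in AT3 than in CPT (-0.48, edgeR adjusted p = 0.0307) and than in CON (-0.41, adjusted p = 0.0203).

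**Figure D2:**
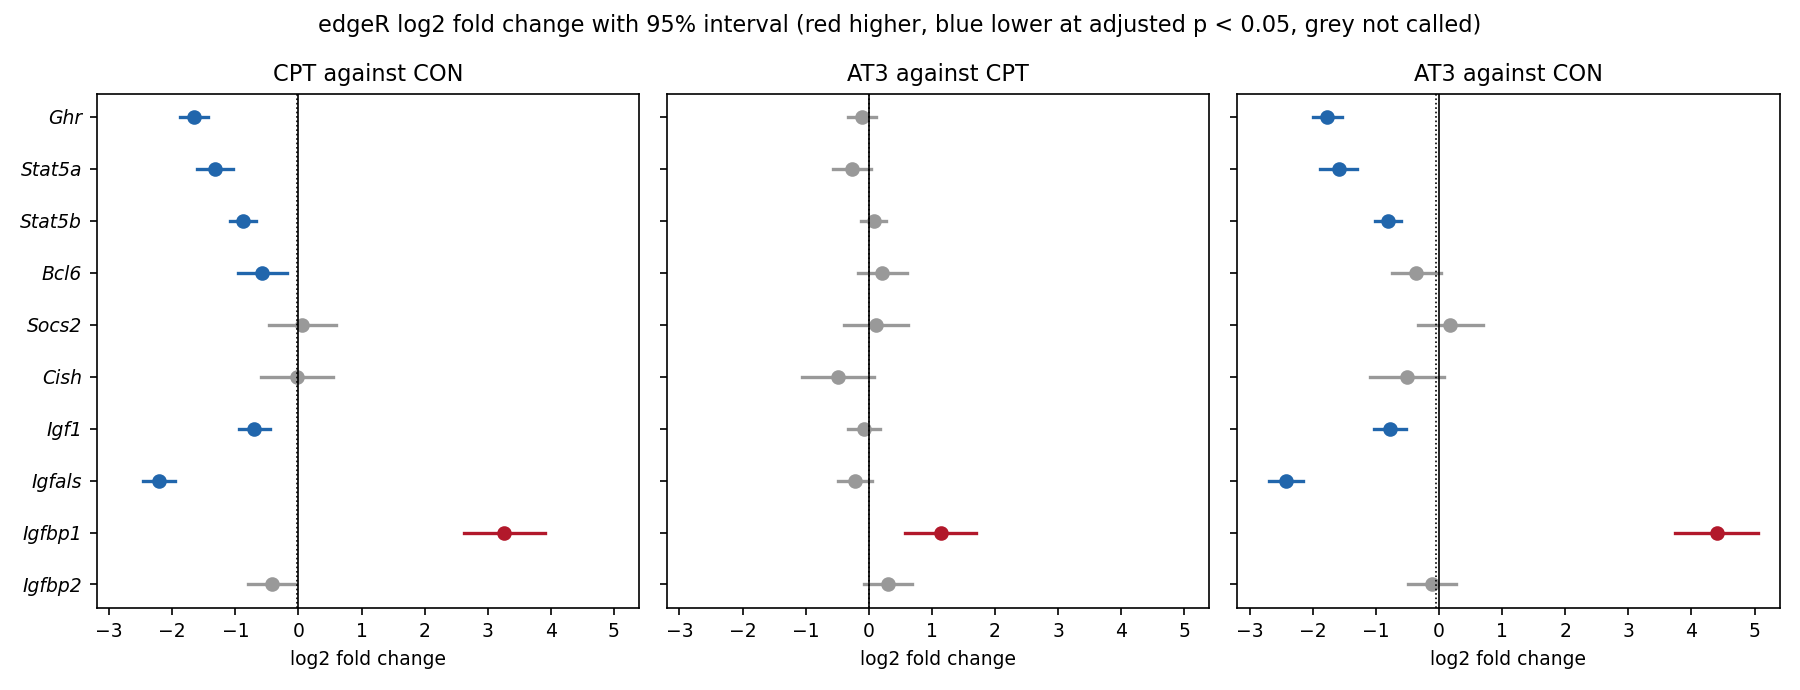
edgeR log2 fold change of each gene (point) with its 95% interval (line) in CPT against CON, AT3 against CPT and AT3 against CON; the dotted line marks the median of all tested genes. Igfbp1 lies at 3.26, 1.14 and 4.40 in the 3 panels, Ghr and Igfals lie furthest below 0 in both comparisons with CON, and Socs2 and Cish span 0 in all 3.

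Igf1, the growth factor itself (chromosome 10, 87858265 to 87937042, plus strand, overlapping the antisense gene Igf1os), was the most abundant of the 10 genes per length in every library, at 564 to 661 TPM. On the CPM scale it stood at 691, 664 and 732 in AT3, at 809, 706 and 682 in CPT, and at 1130, 1042 and 1397 in CON. No cisplatin library reached the lowest CON library, and AT3 and CPT overlapped. Igf1 fell by 0.70 ± 0.12 on the log2 scale in CPT against CON, 1.62-fold (SE; edgeR adjusted p = 0.000112), and by 0.77 ± 0.12 in AT3 against CON (adjusted p = 3.75e-05). AT3 against CPT gave -0.07 with an interval of -0.33 to 0.18 (edgeR adjusted p = 0.786).

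The fall of Igf1 depends on the scale, unlike those of Ghr and Igfals. In deposited TPM, Igf1 averaged 647 ± 12.5 in AT3, 618 ± 49.3 in CPT and 590 ± 8.52 in CON (SD, n = 3 each), and limma on log2(TPM + 1) gave 0.06 in CPT against CON (adjusted p = 0.640) and 0.13 in AT3 against CON (adjusted p = 0.310). On that scale the median of all genes itself stood at 0.29 and 0.32, and 80.5% of called genes were higher in each comparison, against about as many higher as lower, 4107 and 4219 genes, on the TMM scale in CPT against CON. Relative to the median of all genes Igf1 was therefore lower on both scales. TPM also carry transcript lengths that differed between libraries, and their part was not tested. In counts without TMM it gave -0.30 in CPT against CON (edgeR adjusted p = 0.0609). With the same TMM correction applied to TPM, the log2 fold changes were -0.55 (limma adjusted p = 0.00490) and -0.56 (adjusted p = 0.00397). Stat5b lost its calls on plain TPM in the same way, at -0.24 (limma adjusted p = 0.167) and -0.07 (adjusted p = 0.663).

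**Figure D3:**
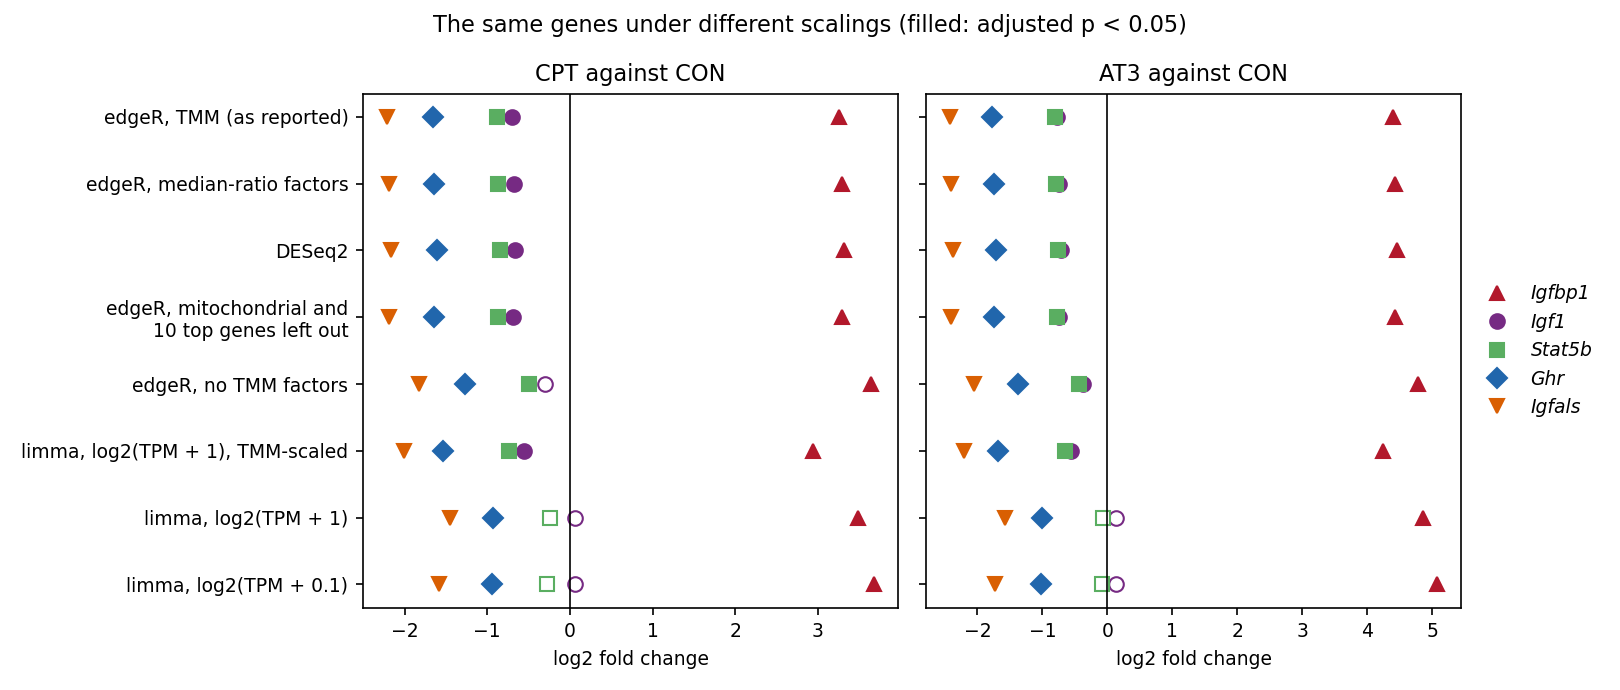
log2 fold change of 5 genes under 8 scalings or tools, CPT against CON on the left and AT3 against CON on the right; filled symbols are called at an adjusted p below 0.05 and open symbols are not. Igfbp1, Ghr and Igfals stay on their side of 0 in every line, whereas Igf1 moves to 0.06 and 0.13 on uncorrected TPM.

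Igfals, the gene of the acid-labile subunit (chromosome 17, 24865997 to 24882010, plus strand), showed the deepest fall among the 10 genes in both comparisons with CON. It had 10.6, 7.62 and 11.2 CPM in AT3, 11.7, 11.3 and 11 CPM in CPT, and 54.2, 53.5 and 49.8 CPM in CON. The cisplatin groups overlapped each other and lay far below CON. The log2 fold change was -2.21 ± 0.12 in CPT against CON, 4.62-fold lower (SE; edgeR adjusted p = 7.58e-10), and -2.42 ± 0.13 in AT3 against CON, 5.37-fold lower (adjusted p = 2.61e-10). Between AT3 and CPT it was -0.22 with an interval of -0.49 to 0.05 (edgeR adjusted p = 0.362).

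Igfbp1, the gene of the insulin- and stress-responsive binding protein (chromosome 11, 7197782 to 7202546, plus strand), was the only member to rise. It reached 257, 249 and 258 CPM in AT3 and 68.0, 82.3 and 198 CPM in CPT, against 11.7, 12.5 and 11.9 CPM in CON. The groups did not overlap, AT3 and CON were each tight, and CPT_3 stood nearer to AT3 than to the other two CPT libraries. CPT against CON gave a log2 fold change of 3.26 ± 0.30, 9.60-fold (SE; edgeR adjusted p = 1.91e-07), and AT3 against CON gave 4.40 ± 0.31, 21.1-fold (adjusted p = 8.91e-09). Among all 13686 tested genes, the size of the change lay at percentile 97.0 in CPT against CON and 98.4 in AT3 against CON.

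Igfbp1 was also 2.20-fold higher in AT3 than in CPT (log2 fold change 1.14 ± 0.27, SE; edgeR adjusted p = 0.0252). The call was lost with DESeq2 (adjusted p = 0.0767), with limma on log2(TPM + 1), at 1.37 (adjusted p = 0.101), with only the 6 libraries compared (edgeR adjusted p = 0.0532) and without any 1 of AT3_1, AT3_2, AT3_3, CPT_1 or CPT_2, with log2 fold changes of 0.86 to 1.15 and adjusted p of 0.0696 to 0.116. Without CPT_3 it was larger, 1.76 (edgeR adjusted p = 2.90e-07).

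Igfbp2, the gene of a binding protein that rises in fasting (chromosome 1, 72824503 to 72852474, plus strand), stood at 102, 88.3 and 98.0 CPM in AT3, at 55.3, 79.7 and 97.8 CPM in CPT, and at 93.0, 132 and 85.6 CPM in CON. All groups overlapped. CPT against CON gave -0.42 ± 0.18 on the log2 scale and missed the threshold (SE; edgeR adjusted p = 0.0552), but passed it without CPT_3, at -0.61 (adjusted p = 0.00778), and without CON_3, at -0.53 (adjusted p = 0.0309), as it did without the filter on low counts, at -0.33 (adjusted p = 0.00945), and on TMM-scaled TPM, at -0.52 (limma adjusted p = 0.0411). AT3 against CPT gave 0.31 (edgeR adjusted p = 0.351).

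Per length, the order of the binding protein genes differed between the groups. In CON, Ghr at 84.5 ± 17.3 TPM and Igfbp2 at 81.1 ± 31.7 TPM overlapped in the place after Igf1, then Igfals at 17.4 ± 3.29 TPM, and Igfbp1 stood at 5.63 ± 1.05 TPM, overlapping Stat5b at 4.97 ± 1.04 TPM (SD, n = 3). In CPT, Igfbp2 at 84.2 ± 24.2 TPM and Igfbp1 at 82.7 ± 53.4 TPM overlapped after Igf1. In AT3, Igfbp1 at 190 ± 6.69 TPM followed Igf1 with no overlap with Igfbp2 at 110 ± 7.49 TPM. The lowest of the 10 in AT3 was Stat5a at 1.28 ± 0.190 TPM, while Cish at 1.92 and Bcl6 at 1.88 TPM overlapped just above it.

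Ratios within a library do not depend on the scaling of the library, but TPM ratios depend on the transcript lengths used, which were not the same in every library. The TPM ratio of Igfbp1 to Igf1 divided by the ratio of their counts per annotated length was 0.523 to 0.541 in AT3, 0.523 to 0.601 in CPT and 0.575 to 0.637 in CON. The TPM ratio of Igfbp1 to Igf1 was 0.303, 0.303 and 0.277 in AT3, 0.0681, 0.105 and 0.228 in CPT, and 0.00899, 0.0115 and 0.00814 in CON. Its geometric mean was 31.2-fold higher in AT3 than in CON, 12.5-fold that of CON in CPT, and 2.50-fold higher in AT3 than in CPT, with no overlap in any comparison. The ratio of Igfals to Igf1 had geometric means of 0.00788 in AT3, 0.00919 in CPT and 0.0291 in CON, and both cisplatin groups lay wholly below CON. The ratio of Stat5b to Stat5a was 3.64 in AT3, 2.80 in CPT and 2.04 in CON, none overlapping, with the division of shared reads as a limit. For Igfbp2 to Igf1 it was 0.170 in AT3, 0.132 in CPT and 0.131 in CON, with overlap throughout. From counts per length the log2 differences of Igfbp1 to Igf1 were 5.17 in AT3 against CON, 3.80 in CPT against CON and 1.37 in AT3 against CPT, those of Igfals to Igf1 were -1.68, -1.52 and -0.16, and that of Igfbp2 to Igf1 in AT3 against CON was 0.68, against 0.37 from TPM. The two-sided exact permutation test of 3 against 3 libraries gave p = 0.10, the smallest it can reach, for every comparison without overlap, and 0.150 after adjustment over the 12 tests, so none passed a threshold of 0.05.

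**Figure D4:**
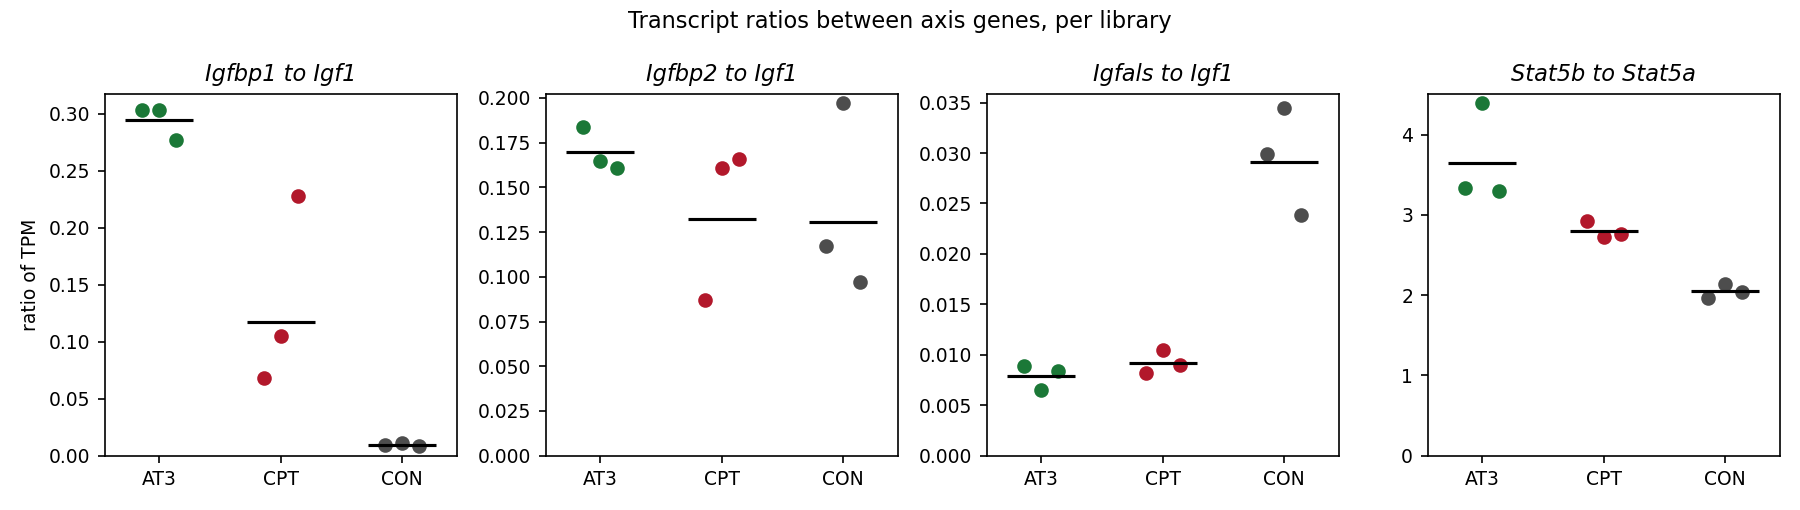
Ratio of deposited TPM between 2 genes in each library (points) with the geometric mean of the group (line), AT3, CPT and CON from left to right, each axis linear from 0. Igfbp1 to Igf1 has geometric means of 0.294 in AT3, 0.118 in CPT and 0.00943 in CON, and Igfals to Igf1 has 0.00788, 0.00919 and 0.0291 in the same order.

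Among 17 other genes of the IGF system, 9 were tested, and in CPT against CON 1 rose and 5 fell. Their median log2 fold change was -1.11, beside -0.02 over all tested genes, of which 30.0% were higher and 30.8% lower. Igfbp4, which encodes an inhibitory binding protein, rose to 1425 ± 132 CPM in CPT, against 937 ± 19.9 in CON (SD, n = 3; log2 fold change 0.61, edgeR adjusted p = 9.49e-05). Igfbp3, the carrier of the circulating ternary complex, fell to 3.77 ± 0.662 CPM in CPT, against 13.6 ± 1.24 in CON (log2 fold change -1.85, edgeR adjusted p = 2.67e-07). Igfbp5 and Igfbp7, 2 other binding protein genes, changed by -2.03 and -2.71, and the insulin receptor gene Insr by -0.28 (edgeR adjusted p = 1.76e-05, 5.36e-09 and 0.0433). The other of the 5, the secreted protease gene Htra1, had at most 3 counts in any CPT library and 22 in any CON library, and entered the test through CON. The receptor gene Igf2r gave 0.10 (edgeR adjusted p = 0.444), and Igf1r averaged 0.245 CPM in CPT and 0.538 CPM in CON. The call of Insr held in only 2 of 16 alternatives. It was lost with DESeq2 (adjusted p = 0.102), with median-ratio factors (edgeR adjusted p = 0.0532) and with the replicate block (edgeR adjusted p = 0.0631). The sign of Insr turned on log2(TPM + 1), at 0.24. Between AT3 and CPT 0 of the 9 were called by edgeR or by DESeq2, beside 4.68% and 7.23% of all tested genes. The 3 of them with the smallest edgeR p, Igf2r, Igfbp4 and Igfbp7, gave log2 fold changes of 0.26, 0.24 and -0.43, and none was called. Markers of liver sinusoidal endothelial cells moved beside these falls: 0 of 12 rose and 10 fell in CPT against CON, and their summed level was 29.5 to 40.0 CPM in AT3, 24.3 to 34.8 in CPT and 136 to 142 in CON. Stellate cell and fibroblast markers summed to 48.8 to 64.2 CPM in AT3, 71.7 to 80.9 in CPT and 386 to 453 in CON, with 11 of 12 lower in CPT than in CON, and no marker of either list was at 0 in all libraries. Their part in the falls of Igfbp3, Igfbp5, Igfbp7, Ghr and Igf1 was not tested.

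Of 8 tested genes of JAK kinases and other STAT factors, 3 rose and 1 fell in CPT against CON, with a median of 0.18. On log2(TPM + 1) 5 rose and 0 fell. Over all tested genes 30.0% were higher and 30.8% lower, and on log2(TPM + 1) 80.5% of the called genes were higher. Jak2, the kinase that GHR uses, fell to 3.76 ± 1.20 CPM in CPT, against 6.59 ± 0.456 in CON (SD, n = 3). Its log2 fold change was -0.81 ± 0.19 (SE, edgeR adjusted p = 0.00205). Jak2 was not called without TMM, at -0.44 (edgeR adjusted p = 0.0968). Nor was it called on log2(TPM + 1), at -0.11 (limma adjusted p = 0.396), or on log2(TPM + 0.1), at -0.23 (limma adjusted p = 0.422). Stat3 rose to 99.6 ± 10.1 CPM in CPT, against 30.2 ± 1.82 in CON (1.72, edgeR adjusted p = 1.33e-09), Jak3, a kinase of lymphoid cytokine receptors, by 2.69 and Jak1 by 0.75 (adjusted p = 1.56e-10 and 1.25e-05). Between AT3 and CPT the only call was Jak3, at -0.41 (edgeR adjusted p = 0.0379), beside 4.68% of all tested genes called. That call was lost without any 1 of AT3_1, AT3_2, AT3_3, CPT_1 and CPT_2, with adjusted p of 0.0631 to 0.171. It was also lost without TMM (edgeR adjusted p = 0.206), with the replicate block (edgeR adjusted p = 0.0686) and on log2(TPM + 1) (limma adjusted p = 0.334).

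Among 15 tested negative regulators of cytokine receptors other than Socs2 and Cish, 6 rose and 6 fell in CPT against CON, with a median of -0.37. On log2(TPM + 1) 6 rose and 1 fell. Over all tested genes 30.0% were higher and 30.8% lower, and on log2(TPM + 1) 80.5% of the called genes were higher. Socs3, an inhibitor induced by interleukin-6 through STAT3 that also restrains growth hormone signalling, stood at 38.3 ± 4.39 CPM in AT3, 66.9 ± 10.5 CPM in CPT and 4.80 ± 2.0 CPM in CON (SD, n = 3 each). It was 14.2-fold higher in CPT than in CON (edgeR adjusted p = 5.37e-10) and changed by -0.80 ± 0.17 on the log2 scale in AT3 against CPT (SE, edgeR adjusted p = 0.0158). The latter call was lost without AT3_1, AT3_3 or CPT_2, with adjusted p of 0.0997, 0.0752 and 0.0860, and on log2(TPM + 1) (limma adjusted p = 0.139). The phosphatase genes Ptpn1, Ptpn2, Ptpn6 and Ptpn11 rose by 0.91, 1.24, 1.09 and 0.50 in CPT against CON, and Pias2 by 0.37, a call lost without CPT_2, CPT_3 or CON_3 (adjusted p = 0.0504, 0.0557 and 0.0729). Socs4, Socs6, Socs7, Pias1, Pias4 and the ubiquitin ligase gene Cbl fell, Socs4 the furthest, to 11.6 ± 2.33 CPM in CPT, against 33.3 ± 7.62 in CON (-1.51, edgeR adjusted p = 2.26e-06); Pias1 turned to 0.02 and Pias4 to 0.17 on log2(TPM + 1). Socs7 was not called with DESeq2 (adjusted p = 0.0988), nor without CPT_2, CON_1 or CON_2 (edgeR adjusted p = 0.141, 0.0607 and 0.111). Of the 10 tested receptors that can also use STAT5 and their partners, 1 rose and 4 fell, beside the same shares of all tested genes. Epor and Il2rb, 2 of the 4, had at most 7 and 6 counts in any CPT library. The prolactin receptor gene Prlr fell by 1.41 ± 0.11 (SE; edgeR adjusted p = 2.40e-08), beside a fall of Ghr by 1.66.

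Genes that need pulsed growth hormone and STAT5B in male mouse liver were mostly lower after cisplatin. Of 22 male-biased genes tested, 1 rose and 18 fell in CPT against CON, with a median log2 fold change of -1.71. Over all tested genes 30.0% were higher and 30.8% lower, with a median of -0.02. With any 1 library left out, 17 to 19 of the list fell. In AT3 against CON 2 rose and 16 fell, beside 31.5% higher and 32.9% lower of all tested genes. The steroid dehydrogenase gene Hsd3b5 stood at 0.735 ± 0.343 CPM in AT3, 0.974 ± 0.624 CPM in CPT and 172 ± 10.1 CPM in CON (SD, n = 3 each). Elovl3, a fatty acid elongase gene, was the male-biased gene with the smallest p in AT3 against CPT, 3.77-fold higher (edgeR adjusted p = 2.48e-05), and had a log2 fold change of -3.44 in AT3 against CON. Its call between AT3 and CPT held under every alternative. Serpina1e and C8b were the other 2 of the 22 to rise between AT3 and CPT, beside 2.46% of all tested genes. With 1 library left out 1 to 4 rose, 1 without AT3_1 or AT3_3 and 4 without CPT_3, when 3 also fell. The call of Serpina1e was lost without AT3_1, AT3_3 or CPT_2 (adjusted p = 0.0580, 0.0545 and 0.0644), and that of C8b without AT3_1, AT3_2, AT3_3 or CPT_1 (0.0784 to 0.112).

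Female-biased genes, which are held low in males, went both ways, as all tested genes did. Of 22 tested of 31, 9 rose and 8 fell in CPT against CON, with a median of 0.06. Over all tested genes 30.0% were higher and 30.8% lower. In AT3 against CON 10 rose and 6 fell, beside 31.5% higher and 32.9% lower of all tested genes. The flavin monooxygenase gene Fmo2 rose by 2.85 on the log2 scale, Cyp39a1, an oxysterol hydroxylase gene, by 4.48 and Cyp17a1, a steroid hydroxylase gene, by 3.51 (edgeR adjusted p = 3.82e-12, 1.12e-10 and 2.57e-10). In AT3 5 rose relative to CPT, beside 2.46% of all tested genes. Sult1e1, the oestrogen sulfotransferase gene, was 4.11-fold higher in AT3 than in CPT (edgeR adjusted p = 7.06e-05), and Cyp2b10, a drug-inducible cytochrome gene, 6.67-fold higher (adjusted p = 0.000665); both calls held when any 1 library was left out, while the list's count was 3 without any 1 of AT3_1, AT3_2, AT3_3 and CPT_1 and 6 without CPT_3. On log2(TPM + 1) the counts in CPT against CON were 11 higher and 3 lower, and those of the male-biased list 4 higher and 14 lower. All 13686 tested genes had 6631 higher and 1604 lower on that scale.

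**Figure D5:**
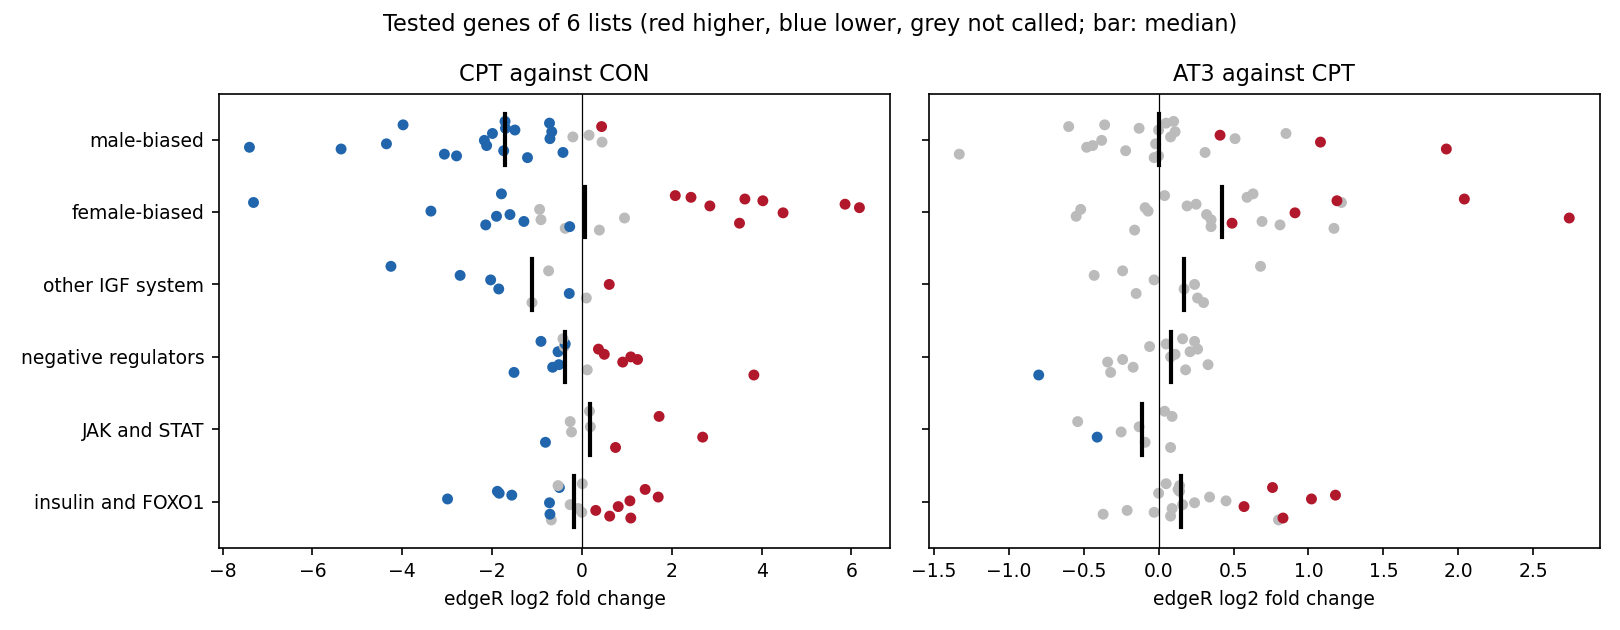
edgeR log2 fold change of each tested gene (point) of 6 lists with the list's median (bar), CPT against CON on the left and AT3 against CPT on the right, on different horizontal scales; vertical scatter within a list carries no value. The median of the male-biased list is -1.71 in CPT against CON and 0.00 in AT3 against CPT, and that of the female-biased list is 0.06 and 0.42.

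Genes of insulin signalling and of the FOXO1 response, which share control with Igfbp1, went both ways, as all tested genes did. Of 20 tested, 7 rose and 7 fell in CPT against CON, beside 30.0% higher and 30.8% lower of all tested genes. On log2(TPM + 1) 11 rose and 4 fell, beside 6631 higher and 1604 lower of all 13686 genes. The glucose production genes Pck1 and Ppargc1a rose by 1.07 and 1.70 on the log2 scale, Irs2, which encodes an adaptor of the insulin receptor, by 1.09, and Foxo1 by 0.81 (edgeR adjusted p = 3.12e-06, 3.73e-06, 2.14e-05 and 6.98e-06). Trib1, Pik3r1 and Akt2 rose by 1.41, 0.62 and 0.31, the call of Akt2 being lost without CPT_3, CON_1 or CON_2 (adjusted p = 0.0898, 0.0523 and 0.110). The insulin-induced gene Srebf1 fell by 1.88 and the glucose 6-phosphatase gene G6pc by 2.99 (edgeR adjusted p = 1.97e-08 and 1.10e-08). Relative to CPT, 5 rose in AT3, as Igfbp1 did, beside 2.46% of all tested genes. On log2(TPM + 1) 0 of the list were called higher there, beside 0.329% of all tested genes called. On TMM-scaled TPM 2 were called higher, beside 1.82% of all tested genes called. Irs2 was 1.78-fold, Foxo1 1.48-fold and Pdk4 2.26-fold higher in AT3 than in CPT (edgeR adjusted p = 0.00458, 0.00481 and 0.0101), and the count was 2 without AT3_1, 3 without AT3_2 and 6 without CPT_3. The calls of Irs2 and Foxo1 held when any 1 library was left out but not on log2(TPM + 1) (limma adjusted p = 0.0550 and 0.0931). That of Pdk4 was lost without AT3_1 or AT3_2 (edgeR adjusted p = 0.0545 and 0.0574) and on log2(TPM + 1) (limma adjusted p = 0.116). Of 15 hepatocyte markers 4 were higher in AT3 than in CPT, beside 2.46% of all tested genes. That count was 1 without AT3_1, AT3_2, AT3_3 or CPT_2, 2 without CPT_1, 6 without CPT_3 and 1 on log2(TPM + 1). The hepatocyte markers summed to 118252 to 127740 CPM in AT3, 86098 to 107942 in CPT and 103772 to 108709 in CON. Of 9 tested neutrophil markers 3 were lower in AT3 than in CPT, beside 2.22% of all tested genes. That count was 2 without AT3_1, AT3_2, AT3_3, CPT_1 or CPT_2, 4 without CPT_3 and 0 on log2(TPM + 1). The neutrophil markers summed to 3014 to 3707 CPM in AT3, 3618 to 3968 in CPT and 7.77 to 11.2 in CON. Of these, Lcn2, a gene that injured hepatocytes also express, averaged 3407 CPM in AT3, 3752 in CPT and 4.86 in CON. The part of either in these differences was not tested.

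In the deposited pathway maps, 84 of 115 genes of the growth hormone map were tested, and 22 rose and 37 fell in CPT against CON, with a median of -0.28. Of the JAK-STAT map 94 of 167 were tested, with 28 higher, 31 lower and a median of -0.06. On log2(TPM + 1) the growth hormone map had 38 higher and 16 lower and the JAK-STAT map 42 higher and 12 lower. Over all 13686 tested genes, 30.0% were called higher and 30.8% lower with edgeR. On log2(TPM + 1) 6631 of them were called higher and 1604 lower. The balance of all genes thus turned with the scale, and both maps turned with it. In AT3 against CPT 2.46% of all tested genes were higher and 2.22% lower. Of the growth hormone map 4 genes rose and 1 fell there, and 3 of the JAK-STAT map fell. Those counts were 5, 4 and 9 without CPT_3, when 2 of the JAK-STAT map also rose (1 without CPT_2), and 1 to 2, 0 to 1 and 0 to 1 without any other 1 of the 6 libraries; on log2(TPM + 1) no gene of either map was called.

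The genes whose log2 CPM ran closest to that of a member over the 9 libraries were ranked by Pearson's r among 10332 genes averaging at least 1 CPM. All libraries of a group share a condition, so such an r mainly reflects the 3 groups. For Igfbp1 they were Pgk1 (0.997), Serpina3k (0.997), Nnt, Rcl1 and Syap1 (0.996 each). For Igf1 they were Zdhhc20 (0.996), Srsf4 (0.991), Tasor (0.990), Chfr (0.989) and Ube3a (0.988). Socs2, with its high value in CPT_2, was followed most closely by Smc3 (0.951) and Ppm1l (0.945), then by Ppig (0.847), Fam13b (0.840) and Snx2 (0.838).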

How the data were processed

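Liver RNA for the 9 libraries came from a column purification and a SMARTer mRNA library kit, per the labels' protocols. The authors deposited estimated counts and TPM values per gene; the sources used here give no aligner, counter or strand setting, and the submitters' processing notes list GRCm38, mm10 and GRCm39 without saying which was used. Estimated counts were rounded and tested with edgeR 4.0.16 (R 4.3.3): TMM scaling, filterByExpr by group, 1 quasi-likelihood fit of all libraries, and Benjamini-Hochberg adjustment over 13686 genes. SE comes from the F statistic. TMM factors were 1.05 to 1.13 in AT3, 1.07 to 1.13 in CPT and 0.726 to 0.963 in CON; 3 counts correspond to 0.105 to 0.14 CPM. The chi-square per degree of freedom between replicates was at least 7.07, so no libraries were counted as duplicates. The fit was tested on simulated data. Positions came from GENCODE M21 on GRCm38, which held 91.3% of the gene identifiers. Alternatives were DESeq2 1.42.0, median-ratio factors, no TMM, no filter, limma 3.58.1 on log2(TPM + 1) or log2(TPM + 0.1), TMM-scaled TPM, mitochondrial and the 10 most abundant genes left out, a replicate block, only the 6 libraries compared and each library left out; TMM-scaled TPM, the summed Stat5 genes, the pathway maps and the alternatives for single list genes were added after seeing the data. The rule for named genes takes all members, the IGF, kinase and regulator lists, up to 3 genes with the smallest p of each other list, and the 5 genes closest to Igf1, Socs2 and Igfbp1. Part of these is printed, and some are not reported here; Lcn2 as the bulk of its list in AT3 and CPT, and albumin as a check of the label were chosen after their values were seen, as were Epor, Il2rb and the genes of the insulin list that rose in CPT. The members and lists were chosen with earlier results of these data known.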

Additional observations from a re-analysis of the deposited data

How the results depend on the processing

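Ghr, Stat5a, Igfals and Igfbp1 kept direction and call in CPT against CON and AT3 against CON under all alternatives. The number of members called in CPT against CON was 4 with limma on log2(TPM + 1) and log2(TPM + 0.1), beside 60.2% and 60.3% of all tested genes, and 6 to 8 when any library was left out, beside 55.1% to 58.5%. In AT3 against CPT it was 0 with DESeq2, limma on each TPM scale and only the 6 libraries compared, 2 without the filter (Igfbp1 and Cish), and 0 to 1 when any library was left out. The shares of all tested genes were 7.23%, 0.234% to 1.82%, 4.79%, 4.62% and 1.22% to 9.30% in the same order. In AT3 against CON the number of members called was 6 to 7 with any library left out, beside 58.2% to 60.4% of all tested genes. Without the filter Igfbp1 gave 1.14 in AT3 against CPT, as in the filtered fit. Its edgeR adjusted p was 2.42e-21 there, in place of 0.0252. What lowered it was not tested, and calls gained without the filter carry this as a limit.

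Reversals in CPT against CON were as follows. Cish gave 0.40 without TMM, 0.07 without the filter, 0.40 and 0.59 on log2(TPM + 1) and log2(TPM + 0.1), 0.01 with the replicate block, and -0.37 to 0.26 with a library left out. On the same TPM scales Bcl6 gave 0.02 and 0.04, Igf1 0.06 on both and Igfbp2 0.08 on both. Socs2 gave -0.02 on TMM-scaled TPM and -0.46 to 0.32 with a library left out. In AT3 against CPT, Igf1 gave 0.07 on both TPM scales and -0.12 to 0.00 with a library left out, and Socs2 -0.09 to 0.65. In AT3 against CON without TMM, Bcl6 gave 0.02 and Igfbp2 0.25; on log2(TPM + 1) and log2(TPM + 0.1) Bcl6 gave 0.22 and 0.35, Cish 0.13 and 0.21, Igf1 0.13 on both, and Igfbp2 0.50 on both, or -0.22 to 0.11 with a library left out. The log2 ratio of Igfbp2 to Igf1 in CPT against CON, 0.02, ranged from -0.20 to 0.32 with a library left out. Among list genes named in the text, 36 of 56 results kept direction and call under every alternative; in CPT against CON, Insr gave 0.11 without TMM and 0.24 and 0.30 on log2(TPM + 1) and log2(TPM + 0.1), Pias1 0.02 and 0.04 on those TPM scales, and Pias4 0.00, 0.17 and 0.23. The cause was not tested, but scales without TMM moved the median of all genes by 0.31 to 0.61 in the 2 comparisons with CON and by at most 0.08 in AT3 against CPT.

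All genes called in AT3 against CPT numbered 186 without TMM, 1174 without the filter, 45, 32 and 249 on log2(TPM + 1), log2(TPM + 0.1) and TMM-scaled TPM, and 172 to 1316 with a library left out. Without TMM 72.7% of calls in CPT against CON were higher. Same-numbered libraries correlated at -0.04 to 0.08. Each AT3 library correlated best with the CPT library of its own number, at 0.05, 0.08 and 0.07 for replicates 1 to 3. Correlations this small cannot tell whether the numbers pair AT3 and CPT libraries. The replicate block gave 7, 6 and 1 members called in CPT against CON, AT3 against CON and AT3 against CPT. It called 59.6%, 63.2% and 3.30% of all tested genes, with 242 genes higher and 209 lower in the last. Members at 4 to 14 CPM rest on 101 to 445 counts a library.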
